A study of Mus musculus with 6 samples.

Results

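The transcripts of 41 genes that carry glucose through glycolysis, the pentose phosphate pathway and the tricarboxylic acid (TCA) cycle were compared in mouse CD8+ T cells kept with or without neutrophil extracellular traps (NETs). The genes were chosen by name and without a cut on measured values, though earlier results of these data were known. They come from the 22064 genes listed in the deposited tables, of which 15605 had values. All 41 had values and all 41 were among the 12546 genes tested. By role, 22 belong to the route from glucose uptake to lactate, 7 to the pentose phosphate pathway and 12 to pyruvate oxidation, the TCA cycle and cytosolic citrate use.

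CD8+ T cells are lymphocytes that kill infected and tumour cells, and NETs are webs of DNA, histones and granule proteins thrown out by activated neutrophils. The study made this comparison in its work on how NETs affect the survival of CD8+ T cells. The cells came from spleens of BALB/c mice, bought by the study as females of 6 to 8 weeks. The 3 NET samples received NETs at 10 μg/mL for 48 h, and the 3 control samples were kept without NETs. The study's methods prepared NETs from neutrophils activated overnight with phorbol 12-myristate 13-acetate (PMA), describe no mock preparation for these controls, and do not say whether the T cells were stimulated in this culture. Whether the samples of a group are separate mice or cultures is not stated in the sources used here, and p-values therefore measure only sample-to-sample spread, possibly technical. Library totals lay between 18696355 and 19425700 estimated counts, and every pair of replicates differed by more than sampling noise. The T cell markers Cd8a and Cd3e were present in all 6 libraries, at means of 1222 and 314 CPM in control cells and 817 and 201 CPM with NETs. Of the 11 CD8 T cell markers with values, 9 were lower with NETs, from Cd8b1 at a log2 fold change of -0.38 to Cd27 at -1.15, and Cd5 and Gzmb were higher at 0.45 and 0.43 (edgeR adjusted p below 0.05).

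Glycolysis splits glucose into pyruvate in the cytosol and yields ATP quickly, and the reduction of pyruvate to lactate lets it run on. The pentose phosphate pathway branches from its first intermediate and supplies NADPH and the ribose of nucleotides, while pyruvate that enters mitochondria is oxidised in the TCA cycle or leaves as citrate for lipid synthesis. Resting T cells rely mostly on mitochondrial oxidation, and activated T cells are known for high glucose uptake and lactate release.

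With NETs, 21 of the 41 transcripts were higher and 1 was lower at an edgeR adjusted p below 0.05, and 19 did not pass the test. Over all genes tested, 22.3% were higher and 22.3% were lower. On the route from glucose to lactate 14 of 22 were higher and 1 was lower, in the pentose phosphate pathway 3 of 7 were higher, and among the mitochondrial and citrate genes 4 of 12 were higher. The median log2 fold change was 0.44, 0.26 and 0.12 in these groups, 0.26 over the 41 genes and -0.01 over all genes tested. In bulk RNA, a change in the mix of cells and a change in RNA per cell cannot be told apart.

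With a further requirement of a log2 fold change of at least 0.58 in size, 8 of the 41 were higher, against 13.4% of all genes tested. They were Hk2, Slc2a3, Rpia, Aldoc, Slc2a1, Ldhb, Pkm and Eno1. Pkm and Eno1 lay just past 0.58, and their log2 fold changes ranged from 0.53 (without NET library 1) to 0.66 (without control library 1) and from 0.55 (without control library 1) to 0.63 (without NET library 3) when each library was left out. Pkm was below 0.58 without NET library 1 or control library 2 (0.55), and Eno1 without control library 1, NET library 1 or NET library 2 (0.56). None of the 41 was lower past that threshold, which 11.9% of all genes were. For 28 of the 41 every NET library lay on the same side of every control library, above it for 26 and below it for 2, and 54.7% of all genes tested had such non-overlapping groups. The 41 transcripts held 1.95%, 1.92% and 1.89% of the estimated counts in control libraries 1 to 3 and 2.62%, 2.56% and 2.32% in NET libraries 1 to 3.

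**Figure D1:**
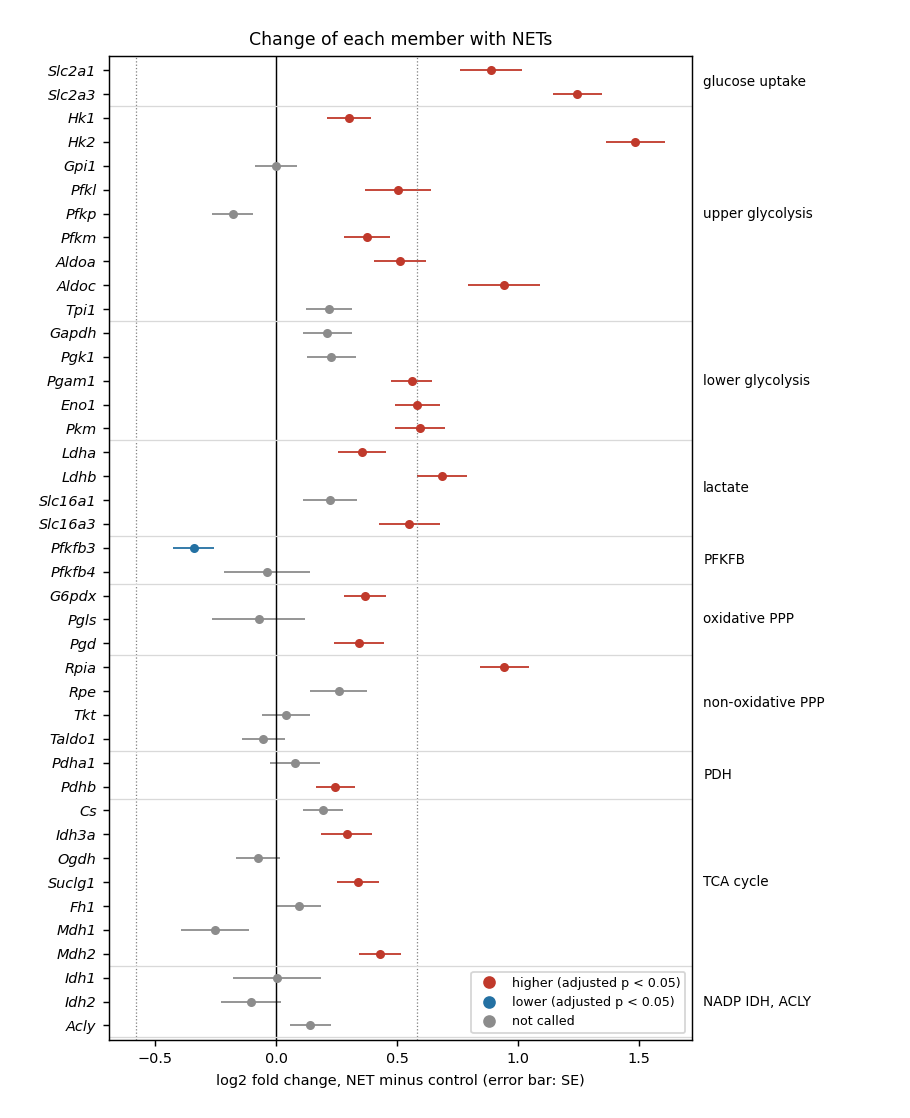
Log2 fold change of each of the 41 transcripts, NET minus control, with the standard error as a bar (3 libraries per group); red and blue mark transcripts higher and lower at an edgeR adjusted p below 0.05, grey those that did not pass, and dotted lines stand at 0.58 in each direction. Hk2 at 1.48 and Slc2a3 at 1.24 lie farthest to the right, and Pfkfb3 at -0.34 is the only blue point (PPP, pentose phosphate pathway; PDH, pyruvate dehydrogenase; IDH, isocitrate dehydrogenase).

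The region before the transcription start is shown for Hk2, Rpia and Slc2a1, the genes with the largest rises among those with a RefSeq promoter entry and a mean of at least 20 CPM. Each run is the 250 bases upstream of the start in GRCm38.p6, the assembly that mm10 names, read 5′ to 3′ on the gene's strand. Hk2 is from chr6:82774455-82774704 (minus strand), Rpia from chr6:70792176-70792425 (minus strand) and Slc2a1 from chr4:119108495-119108744 (plus strand). Capitals mark ACGTG and GCGTG, the core letters of the hypoxia response element, on either strand, where they read CACGT and CACGC in reverse.
Hk2: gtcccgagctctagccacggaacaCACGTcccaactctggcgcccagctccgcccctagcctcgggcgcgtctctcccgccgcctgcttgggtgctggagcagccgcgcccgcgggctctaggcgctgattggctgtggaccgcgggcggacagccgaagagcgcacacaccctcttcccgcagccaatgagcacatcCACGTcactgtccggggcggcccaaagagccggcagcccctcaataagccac
Rpia: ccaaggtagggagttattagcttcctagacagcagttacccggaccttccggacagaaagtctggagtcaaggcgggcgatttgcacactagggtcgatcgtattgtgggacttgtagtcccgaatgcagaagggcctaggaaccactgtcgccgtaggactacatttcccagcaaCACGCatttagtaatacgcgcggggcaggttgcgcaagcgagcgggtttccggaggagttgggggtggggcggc
Slc2a1: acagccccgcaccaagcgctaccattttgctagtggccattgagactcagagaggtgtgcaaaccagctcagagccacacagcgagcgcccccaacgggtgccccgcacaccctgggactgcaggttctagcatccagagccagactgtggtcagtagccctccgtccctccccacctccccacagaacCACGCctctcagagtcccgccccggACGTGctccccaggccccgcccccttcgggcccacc
The Hk2 run holds CACGT beginning 226 and 52 bases before the start. The Rpia run holds CACGC 74 bases before the start, and the Slc2a1 run holds CACGC at 61 and ACGTG at 36 bases before it.

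Promoters of 39 of the 41 genes were in the table, and Slc2a3 and Idh3a had no entry. In the window from 250 bases before to 50 bases after the start, read on both strands, ACGTG was found in 16 of the 39 (41%), in 25.7% of the 9990 promoters of genes tested and in 19.7% of all 27025 promoters. It was found in 9 of 19 genes called higher and in 7 of the other 20. GCGTG was found in 66.7% of the 39, 50.8% of the promoters of genes tested and 32.5% of all. Of the 19 genes called higher 13 held GCGTG, as did 13 of the other 20. The E-box CACGTG, which contains ACGTG, was found in 7.69%, 10.2% and 7.24%, and TGACNNNGC, the core of the antioxidant response element, in 10.3%, 15.0% and 12.5%. These are matches of letters and not measured binding.

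The transcripts of both glucose transporters rose. Slc2a3, which encodes the high-affinity transporter GLUT3, was at 199, 238 and 225 CPM in control libraries 1 to 3 and at 531, 484 and 553 CPM in NET libraries 1 to 3. All NET libraries were above all control libraries, and the transcript rose by 1.24 ± 0.10 on the log2 scale (standard error, SE; adjusted p from edgeR = 7.53e-06). Slc2a1, which encodes the broadly used transporter GLUT1, was at 126, 92.9 and 93.5 CPM in control libraries and at 208, 187 and 182 CPM in NET libraries. Library 1 was the highest of each group and the groups did not overlap (log2 fold change 0.89 ± 0.13, edgeR adjusted p = 0.000341).

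Hexokinase traps glucose in the cell by phosphorylation, and the inducible isoenzyme gene Hk2 showed the largest change of the 41, ranking 632 in log2 fold change among all genes tested. Hk2 was at 149, 126 and 119.8 CPM in control libraries and at 356, 328 and 419 CPM in NET libraries (log2 fold change 1.48 ± 0.12, edgeR adjusted p = 8.37e-06). Even the lowest NET library was well above the highest control library. Hk1, the constitutive isoenzyme gene, was at 203, 191 and 187 CPM in control libraries and at 238, 221 and 257 CPM in NET libraries. The groups did not overlap and the transcript rose by 0.30 ± 0.09 on the log2 scale (edgeR adjusted p = 0.0215), but the call was lost without NET library 3 (adjusted p = 0.0520), control library 2 (0.0917) or control library 3 (0.0826).

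Phosphofructokinase, the committing step of glycolysis, is encoded by genes for a liver (Pfkl), a platelet (Pfkp) and a muscle (Pfkm) form. Pfkl was at 209, 157 and 148 CPM in control libraries and at 273, 231 and 225 CPM in NET libraries. Library 1 was the highest in each group, the groups did not overlap, and the transcript rose by 0.50 ± 0.14 on the log2 scale (edgeR adjusted p = 0.0135), a call lost without control library 2 (adjusted p = 0.0568) or control library 3 (0.0590). Pfkm was at 32.2, 30.7 and 28.9 CPM in control libraries and at 41.4, 40.2 and 37.5 CPM in NET libraries, and it rose by 0.37 ± 0.09 on the log2 scale (edgeR adjusted p = 0.00862). Pfkp, the most abundant form, was at 583, 548 and 539 CPM in control libraries and at 499, 494 and 482 CPM in NET libraries. Every NET library was below every control library, but the log2 fold change of -0.18 ± 0.08 did not pass the test (edgeR adjusted p = 0.109).

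Aldolase cleaves the phosphorylated sugar into triose phosphates. Aldoc, the form best known from brain, was at 5.72, 5.96 and 5.60 CPM in control libraries and at 12.4, 11.5 and 9.30 CPM in NET libraries (log2 fold change 0.94 ± 0.15, edgeR adjusted p = 0.000611). Aldoa, the main form, was at 1169, 1120.1 and 1106 CPM in control libraries and at 1759, 1701 and 1383 CPM in NET libraries (log2 fold change 0.51 ± 0.11, edgeR adjusted p = 0.00342). Neither gene's groups overlapped, and NET library 3 was the lowest of its group for both. Gpi1, the isomerase that follows hexokinase, had a log2 fold change of 0.00 ± 0.09, and Tpi1, which interconverts the products of aldolase, of 0.22 ± 0.09. Tpi1 was between 714 and 768 CPM in control libraries and between 796 and 942 CPM in NET libraries and did not pass the test (edgeR adjusted p = 0.0848), but did without NET library 3 (adjusted p = 0.0347).

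**Figure D2:**
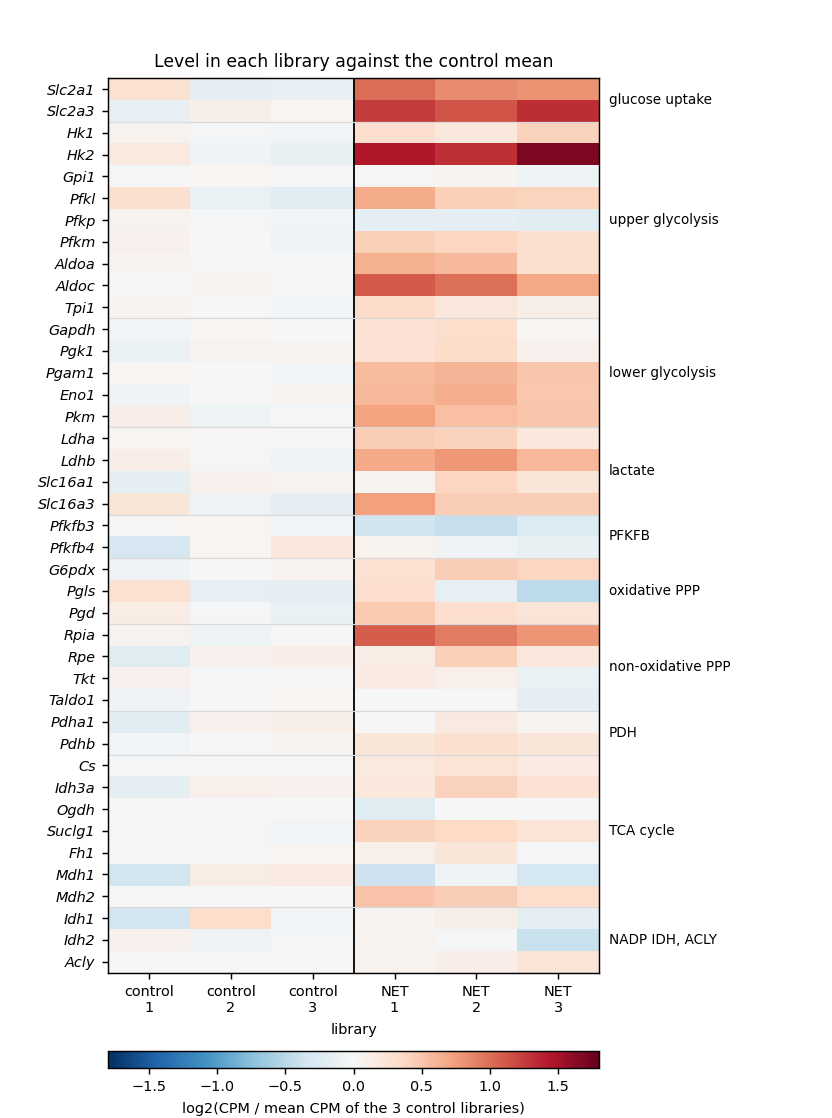
Colour map of log2(CPM divided by the mean CPM of the 3 control libraries) for each of the 41 transcripts (rows, ordered by role) in each library (columns), red above and blue below the control mean. The rows of Slc2a1, Slc2a3, Hk2, Aldoc and Rpia are darkest red in all 3 NET libraries, and most rows are paler in NET library 3, which was the lowest of its group for 28 of the 41.

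In lower glycolysis the transcripts of the final 3 enzymes rose, and those of Gapdh and Pgk1 did not pass the test. Eno1, the enolase gene, was at 2085, 2179 and 2255 CPM in control libraries and at 3303, 3427 and 3037 CPM in NET libraries (log2 fold change 0.58 ± 0.09, edgeR adjusted p = 0.000598). Pkm, which encodes the pyruvate kinase of most tissues, was at 2070.4, 1779.5 and 1844 CPM in control libraries and at 3145, 2775 and 2675 CPM in NET libraries (log2 fold change 0.59 ± 0.10, edgeR adjusted p = 0.00114). The groups stood well apart for each gene, with NET library 3 the lowest NET library. Values are per gene, so the M1 and M2 splice forms of Pkm were not resolved here. Pgam1, the mutase before enolase, rose from 699.7 ± 20.2 CPM to 1031 ± 41 CPM (SD, n = 3 each), by 0.56 ± 0.09 on the log2 scale (edgeR adjusted p = 0.000501).

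Gapdh, which encodes the dehydrogenase that makes glycolytic NADH, was at 3563, 3787 and 3706 CPM in control libraries and at 4429, 4591 and 3787 CPM in NET libraries. NET library 3 fell among the control libraries, and the log2 fold change of 0.21 ± 0.10 did not pass the test (edgeR adjusted p = 0.112). Pgk1, the first ATP-yielding kinase of the pathway, lay between 1547 and 1749.7 CPM in control libraries and between 1780.0 and 2113 CPM in NET libraries, also short of the threshold (log2 fold change 0.23 ± 0.10, edgeR adjusted p = 0.0923). Without NET library 3, both passed, Gapdh with 0.29 (edgeR adjusted p = 0.0160) and Pgk1 with 0.30 (edgeR adjusted p = 0.0283).

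A near-identical copy can share reads with Eno1. The copy, Eno1b, held 3.18% of the summed level of both and did not pass the test (70.2 ± 28.5 CPM to 108 ± 48 CPM, SD, n = 3 each), and the summed level of both genes differed by 0.58 on the log2 scale. The retrocopies of Aldoa held 0.116% of the summed aldolase A level.

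Of the 4 lactate genes, 3 were called higher. Ldhb, the heart-type subunit of lactate dehydrogenase, was at 21.2, 19.2 and 18.4 CPM in control libraries and at 31.4, 33.5 and 29.6 CPM in NET libraries (log2 fold change 0.68 ± 0.10, edgeR adjusted p = 0.000500). Ldha, the muscle-type subunit, was at 2115, 2050.0 and 2008 CPM in control libraries and at 2797, 2746 and 2349.5 CPM in NET libraries. The groups did not overlap for either subunit. Ldha rose by 0.35 ± 0.10 on the log2 scale (edgeR adjusted p = 0.0141), a call lost without NET library 2 (adjusted p = 0.0535), control library 2 (0.0584) or control library 3 (0.0578).

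Slc16a3, which encodes the lactate exporter MCT4, was at 110.4, 88.5 and 84.6 CPM in control libraries and at 158, 128 and 129 CPM in NET libraries. Library 1 was the highest of each group, the groups did not overlap, and the transcript rose by 0.55 ± 0.13 on the log2 scale (edgeR adjusted p = 0.00569). Slc16a1, which encodes the related transporter MCT1, was at 141, 167 and 165 CPM in control libraries and at 163, 207 and 183 CPM in NET libraries. Here library 1 was the lowest of each group and NET library 1 lay within the control range (log2 fold change 0.22 ± 0.11, edgeR adjusted p = 0.131).

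The PFKFB enzymes make and remove the sugar bisphosphate that activates phosphofructokinase. Pfkfb3, the form with the strongest activating side, was the only one of the 41 transcripts called lower. It was at 89.3, 89.9 and 85.1 CPM in control libraries and at 68.6, 66.0 and 74.0 CPM in NET libraries, with no overlap (log2 fold change -0.34 ± 0.09, edgeR adjusted p = 0.00868). Pfkfb4 was near the bottom of the levels, at 3.64, 4.61 and 5.18 CPM in control libraries and at 4.69, 4.29 and 4.10 CPM in NET libraries, which all lay within the control range (log2 fold change -0.04 ± 0.18, edgeR adjusted p = 0.885).

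**Figure D3:**
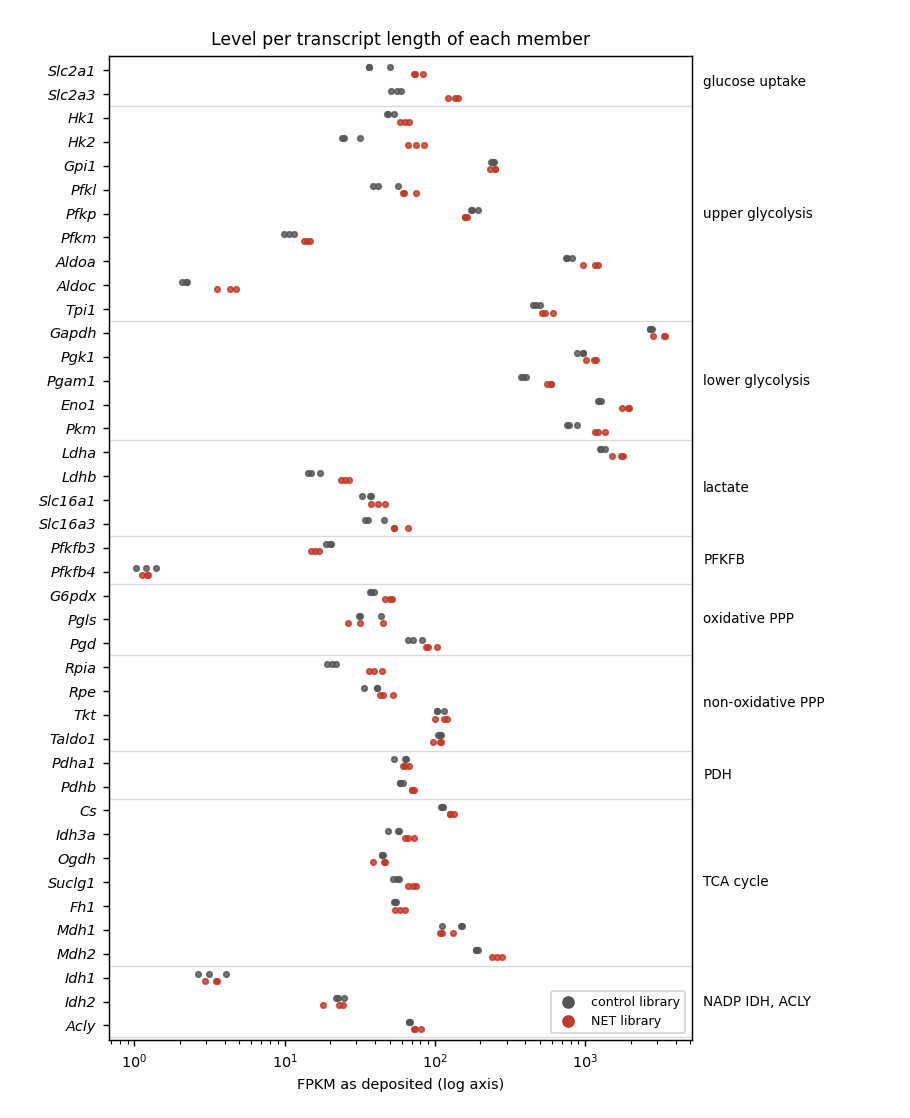
Deposited FPKM of each of the 41 transcripts in each library on a log axis, grey for the 3 control and red for the 3 NET libraries. Pfkfb4, with a control mean of 1.20 FPKM, lies farthest to the left, and Gapdh, with a control mean of 2716 FPKM, farthest to the right.

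Levels of different genes can be set side by side only per transcript length, as FPKM (fragment counts scaled for transcript length and library size). Gapdh was the most abundant of the 41 on this scale, with a mean of 2716 FPKM in control cells and 3196 FPKM with NETs, and ranked 3 among all genes tested. Ldha, with means of 1292 FPKM in control cells and 1673 FPKM with NETs, was second in control cells, and Eno1, with 1243 and 1887 FPKM, was second with NETs, whereas Pfkfb4, Aldoc and Idh1 were the lowest in control cells with 1.20, 2.17 and 3.29 FPKM. The sum over the 22 genes from uptake to lactate was 9387 FPKM in control cells and 12339 FPKM with NETs. That of the 7 pentose phosphate genes was 421 and 481 FPKM, and that of the 12 mitochondrial and citrate genes 859 and 981 FPKM.

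Among the pentose phosphate genes, Rpia, which encodes the isomerase that forms ribose phosphate for nucleotides, changed most. It was at 37.8, 33.8 and 36.6 CPM in control libraries and at 76.4, 68.6 and 62.7 CPM in NET libraries, with no overlap (log2 fold change 0.94 ± 0.10, edgeR adjusted p = 5.10e-05). On the oxidative arm, G6pdx, the entry enzyme that makes NADPH, rose from 87.8 ± 3.9 to 113 ± 6 CPM (SD, n = 3 each), by 0.37 ± 0.09 on the log2 scale (edgeR adjusted p = 0.00649). Pgd, the next NADPH-producing enzyme, lay between 146 and 175 CPM in control libraries and between 187 and 222 CPM in NET libraries. It rose by 0.34 ± 0.10 on the log2 scale (edgeR adjusted p = 0.0219), and the call was lost without NET library 1 (adjusted p = 0.0674), control library 2 (0.0820) or control library 3 (0.0964).

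The other 4 did not pass the test. Pgls, the lactonase between G6pdx and Pgd, ranged from 22.0 to 37.6 CPM in NET libraries and overlapped the control range of 26.9 to 36.9 CPM. Rpe, the epimerase, did not overlap but had a log2 fold change of 0.26 ± 0.12 (edgeR adjusted p = 0.101). Tkt and Taldo1, the transketolase and transaldolase that return sugars to glycolysis, had log2 fold changes of 0.04 ± 0.10 and -0.05 ± 0.09, and their groups overlapped.

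Of the 12 mitochondrial and citrate genes, 4 were called higher, all by less than 0.58 on the log2 scale. Mdh2, the mitochondrial malate dehydrogenase of the TCA cycle, was at 236, 236 and 238 CPM in control libraries and at 339.5, 323 and 296 CPM in NET libraries (log2 fold change 0.43 ± 0.09, edgeR adjusted p = 0.00293). Its cytosolic counterpart Mdh1 was at 210.0, 291 and 294 CPM in control libraries and at 204, 252 and 212 CPM in NET libraries. Mdh2 did not overlap between the groups, while control library 1 of Mdh1 lay within the NET range. The log2 fold change of Mdh1 was -0.25 ± 0.14 (edgeR adjusted p = 0.174), and -0.40 (edgeR adjusted p = 0.0155) without control library 1.

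Suclg1, a subunit of the succinyl-CoA ligase, rose from 75.1 ± 2.2 to 94.9 ± 6.4 CPM (SD, n = 3 each), by 0.34 ± 0.09 on the log2 scale (edgeR adjusted p = 0.0102). Pdhb, a subunit of pyruvate dehydrogenase, rose by 0.24 ± 0.08 on the log2 scale (edgeR adjusted p = 0.0319), and Idh3a, the catalytic subunit of NAD-dependent isocitrate dehydrogenase, by 0.29 ± 0.10 (edgeR adjusted p = 0.0447). Neither overlapped between groups, but the Pdhb call was lost without any of 5 libraries (adjusted p between 0.0532 without NET library 1 and 0.127 without control library 2, and passing only without NET library 3). The Idh3a call was lost without any of 5 libraries as well (adjusted p between 0.0653 without control library 3 and 0.147 without NET library 2), all but NET library 1.

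The remaining mitochondrial genes did not pass the test. Pdha1, the partner of Pdhb, had a log2 fold change of 0.08 ± 0.10, Ogdh, of the oxoglutarate dehydrogenase, of -0.07 ± 0.09, and Fh1, the fumarase gene, of 0.09 ± 0.09. Cs, the citrate synthase gene that opens the cycle, lay between 309.8 and 321 CPM in control libraries and between 349 and 375 CPM in NET libraries, with no overlap, at a log2 fold change of 0.19 ± 0.08 (edgeR adjusted p = 0.0826). Cs passed with DESeq2 (adjusted p = 0.0492), with limma on log2(FPKM + 1) and log2(FPKM + 0.1) (0.0447 and 0.0454) and with upper quartile scaling in edgeR (0.0341).

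The 3 genes of NADPH and citrate use outside the cycle did not pass either. Idh1, the cytosolic NADP-dependent isocitrate dehydrogenase, was at 5.83, 9.22 and 7.15 CPM in control libraries and at 7.68, 7.96 and 6.57 CPM in NET libraries. Its mitochondrial relative Idh2 was at 41.2, 37.2 and 38.6 CPM in control libraries and at 40.8, 38.4 and 29.7 CPM in NET libraries. The groups overlapped for both, with log2 fold changes of 0.00 ± 0.18 and -0.10 ± 0.12. Acly, which turns exported citrate into acetyl-CoA, lay between 297 and 299.5 CPM in control libraries and between 313 and 350.4 CPM in NET libraries (log2 fold change 0.14 ± 0.09, edgeR adjusted p = 0.206).

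Where alternative isoenzymes catalyse a step, the share of each in the summed FPKM of its pair or trio was compared within libraries, which needs no scaling between them. Hk2 made up 37.0%, 33.6% and 33.5% of the Hk1 and Hk2 sum in control libraries and 54.3%, 53.1% and 55.7% in NET libraries. Hk2 was thus the minor hexokinase transcript of this pair in every control library and the major one in every NET library. Mdh2 made up 63.5%, 55.8% and 55.6% of the malate dehydrogenase sum in control libraries and 72.0%, 66.4% and 68.3% in NET libraries.

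Within phosphofructokinase, Pfkp made up 76.3% ± 2.1 in control cells and 66.9% ± 1.8 with NETs, Pfkl 19.2% ± 2.2 and 27.3% ± 1.8, and Pfkm 4.53% ± 0.14 and 5.85% ± 0.11 (SD, n = 3 each). Aldoc moved from 0.280% to 0.375% of the aldolase sum, and Ldhb from 1.18% to 1.5% of the lactate dehydrogenase sum (the Aldoc difference of 0.0949 points was 0.172 points on estimated counts without length), so the abundant forms Aldoa and Ldha still held nearly all of each. For these 7 shares the groups did not overlap, and each reached p = 0.1 in a two-sided exact permutation test, the smallest that 3 against 3 samples allow (0.157 after Benjamini-Hochberg adjustment over the 11 shares compared). This exact test therefore cannot reach 0.05 for a share. The other 4 shares overlapped. Slc2a3 moved from 57.8% to 63.6% of the glucose transporter pair (exact p = 0.2), Slc16a3 from 51.9% to 57.7% of the lactate transporter pair (exact p = 0.3), Pfkfb4 from 5.73% to 6.95% (exact p = 0.2) and Idh2 from 87.4% to 86.6% (exact p = 0.7). Single libraries moved these: the Slc2a3 difference of 5.77 points was 2.08 without control library 1, and the Slc16a3 difference of 5.74 points was 2.71 without NET library 1 and 9.04 without control library 1. The Pfkfb4 difference of 1.22 points was 0.739 without control library 1, and the Idh2 difference of -0.82 points was 0.60 without control library 1.

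**Figure D4:**
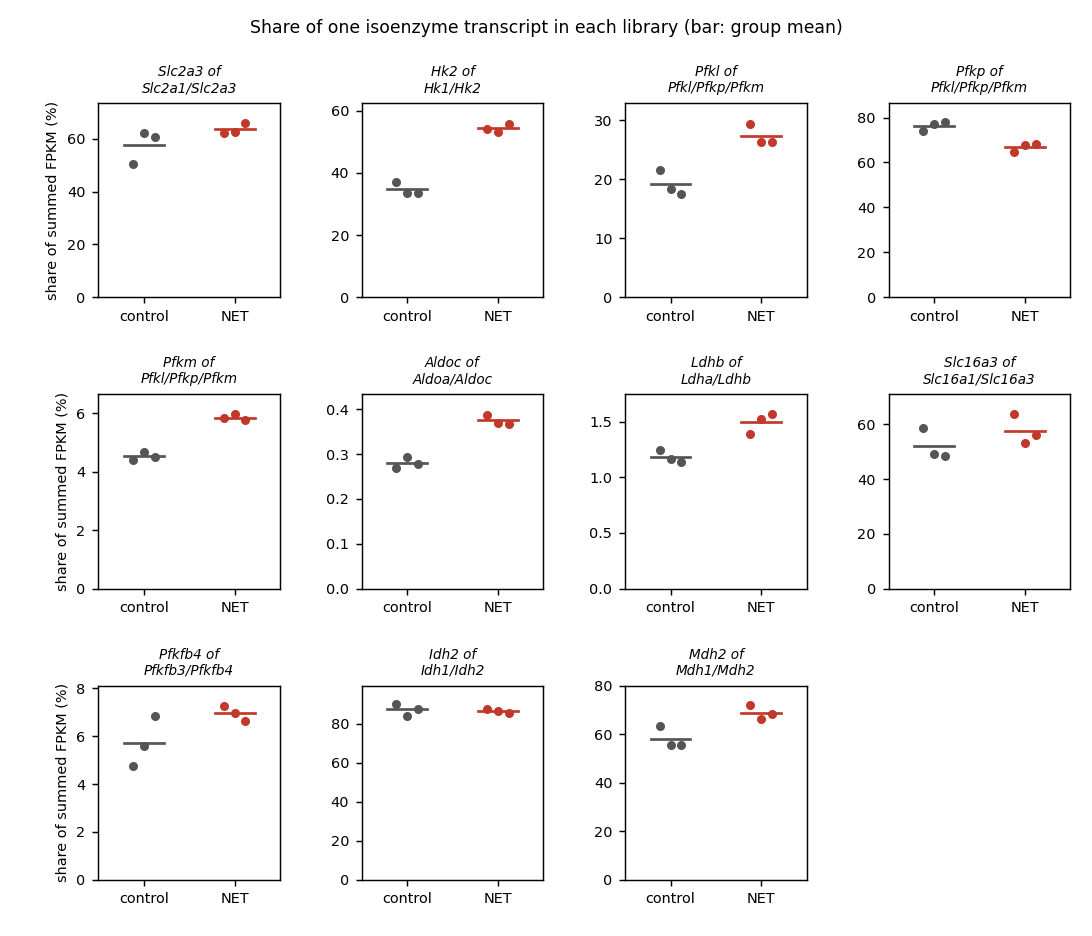
Share of each isoenzyme transcript in the summed FPKM of its pair or trio (percent, axes from 0) in each control (grey) and NET (red) library, with the group mean as a bar. The share of Hk2 lies between 33.5% and 37.0% in control libraries and between 53.1% and 55.7% in NET libraries.

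Other genes of these pathways were taken from a list of 94, of which 86 had values and 77 were tested. Of the 77, 31 rose and 8 fell, with a median log2 fold change of 0.18. Over all genes tested, 22.3% were higher and 22.3% were lower, and the counts of the smaller lists below stand against these same shares. Among other glycolysis enzymes 6 of 13 rose and 2 fell. Galm, the mutarotase that interconverts the anomers of galactose and glucose, rose from 3.30 to 14.7 CPM (log2 fold change 2.15 ± 0.15), Hk3, a further hexokinase, from 5.31 to 16.7 CPM (1.65 ± 0.22) and the enolase gene Eno2 from 12.9 to 24.8 CPM (0.94 ± 0.13). The muscle enolase gene Eno3 fell from 118 to 76.3 CPM (-0.63 ± 0.10), so the 3 enolase genes measured besides the copy did not share a direction. Ldhd, which oxidises D-lactate, fell from 1.12 to 0.348 CPM.

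Of 10 other glucose and monocarboxylate transporters, 7 rose. Slc16a10, a carrier of aromatic amino acids, rose from 13.1 to 90.7 CPM (log2 fold change 2.79 ± 0.11), Slc16a6 from 59.8 to 159 CPM (1.41 ± 0.11) and Slc2a4, the insulin-responsive glucose transporter gene, from 0.531 to 1.49 CPM (1.47 ± 0.30). The largest rise in this list was thus that of a carrier known for substrates other than glucose and lactate.

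Of 11 regulators and gluconeogenic genes, 4 rose and 1 fell. Pcx, the pyruvate carboxylase that refills the TCA cycle, rose from 9.75 to 37.6 CPM (log2 fold change 1.95 ± 0.12). Tigar, a phosphatase that lowers the phosphofructokinase activator, rose from 17.1 to 29.8 CPM (0.80 ± 0.10) and Myc, a transcription factor that drives glycolytic genes in activated T cells, from 216 to 333 CPM (0.62 ± 0.11). Pfkfb2 fell from 30.1 to 24.1 CPM (-0.32 ± 0.11), which is the same direction as Pfkfb3. Hif1a, the oxygen-regulated factor that binds the hypoxia response element, had a log2 fold change of -0.07 ± 0.13 and did not pass the test (edgeR adjusted p = 0.691), which says nothing of its protein.

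Around pyruvate oxidation, 3 of 10 genes rose and 1 fell. Dlat, the acetyltransferase of pyruvate dehydrogenase, rose from 60.0 to 90.4 CPM (log2 fold change 0.59 ± 0.08), Mpc1, a mitochondrial pyruvate carrier subunit, from 36.5 to 48.9 CPM and Pdp1, a phosphatase that activates pyruvate dehydrogenase, from 12.1 to 15.7 CPM. Pdk2, a kinase that inhibits it, fell from 4.35 to 2.37 CPM (-0.87 ± 0.22). Of 11 other TCA cycle genes, Dlst, the succinyltransferase of the Ogdh complex, rose from 157 to 246 CPM and Aco1, the cytosolic aconitase, from 50.1 to 61.2 CPM, and 9 did not pass the test. Of 6 other pentose phosphate genes only Prps1, which makes the ribose donor of nucleotides, passed the test (88.8 to 112 CPM, log2 fold change 0.34 ± 0.08).

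Of 16 genes for shuttles and glutamate feed, 8 rose and 3 fell. Me1, the cytosolic malic enzyme that makes NADPH, rose from 1.99 to 22.6 CPM (log2 fold change 3.51 ± 0.17), Gpd2, of the glycerol phosphate shuttle, from 57.8 to 138 CPM (1.26 ± 0.11) and the glutaminase gene Gls2 from 1.76 to 5.90 CPM (1.75 ± 0.21). Me3, a mitochondrial malic enzyme, fell from 21.1 to 11.0 CPM (-0.94 ± 0.18), D2hgdh, which clears hydroxyglutarate, from 20.4 to 13.8 CPM and Glud1, the glutamate dehydrogenase, from 281 to 214 CPM. These other-gene calls are at an edgeR adjusted p below 0.05 over all genes tested.

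Markers of other cell types moved in the same libraries. Of the 11 B cell markers with values, Cd79a and Ms4a1 among them, 10 were higher. They summed to between 34.0 and 44.2 CPM in control libraries and between 144 and 236 CPM in NET libraries. The 41 metabolic transcripts summed to between 19292 and 19417 CPM in control libraries and between 23012 and 25833 CPM in NET libraries. NET library 3 was the highest of its group in the B cell sum. It was the lowest of its group for 28 of the 41 transcripts and the highest for 5. A marker sum does not measure the share of B cell RNA, and its bearing on the 41 transcripts was not tested. The 13 neutrophil markers with values summed to between 23.6 and 28.5 CPM in control libraries and between 792 and 1019.9 CPM in NET libraries. Without Mmp9, the largest of them, the sum was 23.4 to 28.2 CPM in control libraries and 42.2 to 54.7 CPM in NET libraries. With Mmp9 counted, 6 of the 9 neutrophil markers tested were higher. Camp, too low to be tested, was at 0 in all control libraries and at 0.31, 0.21 and 0.21 CPM in NET libraries 1 to 3. Plasma cell markers had 5 of 6 higher (516 to 533 CPM in control and 676 to 839 CPM in NET libraries). Without Irf4, the largest of them, the sums were 207 to 225 CPM and 325 to 350 CPM. Macrophage or monocyte markers had 4 of 6 tested higher (44.0 to 67.8 CPM in control and 68.2 to 76.0 CPM in NET libraries). Lyz2, the largest of them, did not pass the test, and without it the sums were 14.3 to 19.25 CPM and 30.1 to 38.4 CPM. Among CD4 T cell markers 3 of 4 were lower and Zbtb7b was higher (81.4 to 92.3 CPM in control and 65.9 to 79.8 CPM in NET libraries). Of the 2 NK cell markers tested, Klrd1 was lower and Eomes, the largest, did not pass the test. The 5 NK cell markers with values summed to 143 to 179 CPM in control and 94.7 to 126 CPM in NET libraries. Without Eomes, the sums were 30.5 to 69.9 CPM and 12.0 to 19.8 CPM, and Ncr1, Klrb1c and Klre1 were too low to be tested. Of the 5 dendritic cell markers tested, Ccr7 and Itgax were lower and Xcr1 and Zbtb46 higher. The 7 with values summed to 245 to 266 CPM in control and 103 to 114 CPM in NET libraries. Without Ccr7, the largest of them, the sum went the other way, from 14.3 to 17.6 CPM in control and from 20.8 to 23.3 CPM in NET libraries. None of these markers with values was at 0 in all 6 libraries, and their part in the changes above was not tested.

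The first principal component of log2 CPM held 81.1% of the variance and separated the groups, and the second held 8.29% and set both libraries numbered 1 apart. Without these 2 libraries, an alternative chosen after seeing the data, 21 of the 41 transcripts were higher and 2 lower, with Mdh1 added. Leaving out each library in turn gave between 15 and 22 higher and 1 or 2 lower.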

How the data were processed

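Poly(A) RNA of 6 samples was sequenced from strand-marked, paired-end libraries. The authors deposited estimated counts per gene, unscaled between libraries, and FPKM values, in which the authors scaled fragments to transcript length and to library size. The submitters' processing notes name mm10, and the aligner, the counter and any use of strand in counting are not given in the sources used here. Rows blank in all samples (6459 genes) were treated as missing. Estimated counts were rounded, filtered with filterByExpr (12546 genes kept), scaled with TMM and compared with the edgeR 4.0.16 quasi-likelihood F test (R 4.3.3) without covariates, with Benjamini-Hochberg adjustment over all genes tested (two-sided, threshold 0.05). CPM values are TMM-scaled. Errors are SD of levels and SE of log2 fold changes, the SE taken from the F statistic. The fit was tested on simulated data. FPKM gave levels between genes and isoenzyme shares.

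Alternatives were limma 3.58.1, DESeq2 1.42.0, other scalings and filters, a replicate block and leaving out libraries. Values in every sample were given for members past both thresholds, those called lower and the isoenzymes. Of the other pathway genes, up to 3 in each direction per list were named, those with the smallest adjusted p. Pgam1, Gapdh and other single members were described by role, and Hif1a was named after its value was seen. The members, lists and tests were chosen with earlier results of these data known. Some results that the naming rule took are not reported here.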

Additional observations from a re-analysis of the deposited data

How the results depend on the processing

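Over the alternatives run, 16 of the 22 called transcripts kept their call and direction under each, and 11 of the 19 not called were never called. No direction of a called transcript reversed. Adding the fold threshold of 0.58 left 8 higher and 0 lower. Outside the leave-one-out fits, the count of higher transcripts lay between 20 (no filter on low counts) and 27, with 22 by DESeq2 and 24 with upper quartile factors. Leaving out each library in turn gave 15 to 22 higher and 1 to 2 lower, 15 without control replicate 2 or control replicate 3 and 2 lower without control replicate 1. Without both libraries numbered 1, chosen after seeing the data, 2 were lower. With the replicate number as a block, 27 were higher and 3 lower, with Tpi1, Gapdh, Pgk1, Slc16a1, Rpe and Cs added as higher and Pfkp and Mdh1 as lower. Same-numbered libraries correlated in their deviations from the group means with 0.433, 0.138 and 0.045 for numbers 1, 2 and 3, and NET libraries 2 and 3 correlated best with control libraries 3 and 2, so the numbers were not taken as pairs. The cause of these shifts was not tested. Scalings moved the median of all genes by less than 0.1 on the log2 scale. On estimated counts without length, the share difference of Aldoc was 0.172 instead of 0.0949 points and that of Pfkm 1.09 instead of 1.33 points. The SE of the 41 transcripts lay between 0.08 (Pdhb) and 0.19 (Pgls), and how much of it depth sets was not tested.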
